A study of Mus musculus with 33 samples.

Results

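The 7 genes described here, Gabra2, Gabra3, Gabra4, Gabra5, Gabrb1, Gabrb2 and Gabrd, encode subunits of the GABA-A receptor, and they were followed in mouse hippocampus across an Alzheimer's disease transgene and a liver X receptor drug. They were read by every array probe set that the annotation assigns to 1 of these genes alone, which gave 21 of the 45101 probe sets on the array. Of these, 17 passed a filter on low signals and were tested, with at least 1 for each of the 7 genes. In none of the 3 comparisons did a probe set of these genes pass the test, and the 17 estimates lay close to 0 in the median. From animal to animal, probe sets of 1 gene did not always vary together. Of 51 pairs of a tested probe set with a measure of the arrays themselves, 30 correlated after adjustment.

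The animals were male mice, 20 weeks old, on a mixed SJL × C57BL/6J background, and each array read the right hippocampus of 1 animal. The 33 arrays fell into 3 groups of 11: wild-type littermates given vehicle, heterozygous Tg2576 mice given vehicle, and heterozygous Tg2576 mice given TO901317 by mouth at 50 mg per kg per day. All groups received the same oral vehicle of Tween 80 and carboxymethylcellulose, and all animals were killed 1 hour after the last dose. The length of dosing is stated as 7 days in one place and as 5 days in another. Tg2576 mice express human APP with the Swedish mutation from a prion promoter, so the transgene is not restricted to the cells that normally express App. TO901317 activates the liver X receptors, nuclear receptors that sense oxysterols. Wild-type animals given the drug were not analysed here. The labels call the arrays of a group biological replicates.

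GABA-A receptors are chloride channels opened by the inhibitory transmitter GABA, each built from several subunits around a central pore. The alpha subunits shape where a receptor sits and how it responds to GABA and to drugs such as benzodiazepines, and the beta subunits form the GABA binding site together with an alpha subunit. Receptors that contain the delta subunit lie outside synapses and carry a steady, or tonic, inhibition, and in hippocampus they are best known from dentate granule cells, where delta pairs with the subunit encoded by Gabra4. The subunit encoded by Gabra5 is enriched in hippocampal pyramidal cells, where it also contributes to tonic inhibition.

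Several of these genes lie side by side. In the RefSeq gene table of the mouse assembly GRCm38.p6, Gabrg1, Gabra2, Cox7b2, Gabra4 and Gabrb1 follow each other in this order, and the starts of Gabra4 and Gabrb1, which run in opposite directions, overlap. Gabra6 neighbours Gabrb2, Gabrg3 neighbours Gabra5, and Gabrq neighbours Gabra3. RefSeq promoter windows matched 6 of the 7 genes, all but Gabrd, with 10 windows in all, of which the 250 bases before the start were searched. The windows of Gabra4, Gabra5 and Gabrb2 are shown because the brightest probe sets of these 3 genes varied together across animals. They are written 5′ to 3′ on the gene's strand, with matches to the GC box GGGCGG (on either strand, so also as its reverse complement) and to the TATA box TATAAA in capitals.
Gabra4, chr5:71658309-71658558, minus strand, GRCm38.p6: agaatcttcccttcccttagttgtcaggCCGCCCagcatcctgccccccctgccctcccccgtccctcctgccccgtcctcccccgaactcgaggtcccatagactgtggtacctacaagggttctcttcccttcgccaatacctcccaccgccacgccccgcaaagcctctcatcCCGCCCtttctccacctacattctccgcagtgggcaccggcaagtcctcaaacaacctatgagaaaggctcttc
Gabra5, chr7:57510060-57510309, minus strand, GRCm38.p6: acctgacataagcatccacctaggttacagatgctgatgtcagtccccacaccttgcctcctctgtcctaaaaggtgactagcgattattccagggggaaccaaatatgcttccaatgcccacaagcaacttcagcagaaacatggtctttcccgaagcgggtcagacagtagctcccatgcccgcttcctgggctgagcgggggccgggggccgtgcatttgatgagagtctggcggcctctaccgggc
Gabrb2, first window, chr11:42420190-42420439, plus strand, GRCm38.p6: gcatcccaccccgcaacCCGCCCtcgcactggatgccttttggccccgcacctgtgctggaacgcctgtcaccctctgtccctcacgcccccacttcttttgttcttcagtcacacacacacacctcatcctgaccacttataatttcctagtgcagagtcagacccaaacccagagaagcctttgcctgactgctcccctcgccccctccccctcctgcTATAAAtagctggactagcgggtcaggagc
The Gabra4 window held 2 GC boxes, the Gabrb2 window 1 GC box and 1 TATA box, and the Gabra5 window neither. Over both strands, a GC box lay in 3 of the 10 windows of these genes and in 32.7% of all 32851 windows of that length, and a TATA box in 3 of 10 and in 12.4%. Of the 3 windows with a TATA box, 2 were overlapping windows of Gabra3 and 1 was the Gabrb2 window shown, so windows of 1 gene are not independent. A repeat of AGGTCA with 4 bases between the copies, an arrangement that liver X receptors are known to bind, was in 0 of the 10 windows and in 0.0152% of all windows, and a single AGGTCA was in 0 of 10 and in 14%. The cyclic AMP response element TGACGTCA was in 0 of 10 and in 1.55%. A match or its absence describes only these letters in these windows.

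Values are linear array signals, and differences are on the scale log2(signal + 16), which understates changes of dim probe sets. Trimmed mean signals were equal on all arrays (99.97), and array medians lay between 19.4 and 28.9. The log2 ratio of 3' to 5' probe sets, a measure of RNA integrity, was read for Gapdh and for beta-actin. The Gapdh ratio lay between -0.284 and -0.094 in wild type, between -0.315 and 0.11 in vehicle Tg2576 and between -0.305 and -0.113 in treated Tg2576, with vehicle Tg2576 animals 3 and 4 at the upper end. The beta-actin ratio lay between 0.893 and 1.46, between 0.771 and 1.32, and between 0.912 and 1.37 in the same order. Of listed marker genes, 11 of 12 for dentate granule cells and 9 of 12 for CA pyramidal cells passed the filter. The others were not named by the array annotation. The filter was also passed by 12 of 12 meningeal, 10 of 12 choroid plexus and 12 of 14 thalamic and striatal genes. Passing it therefore does not identify the tissue. Summed choroid plexus signals ranged from 351.63 to 9984 in wild type, 204.13 to 7229.3 in vehicle Tg2576 and 922.48 to 8645.5 in treated Tg2576. The dentate marker score was 0.23 lower in vehicle Tg2576 than in wild type (two-sided permutation p = 0.001, or 0.0173 when adjusted over the 30 score tests), with summed signals of 3148.7 to 4026.6 against 3346.8 to 4287, and it was 0.15 lower in treated Tg2576 than in wild type (adjusted p = 0.044). The astrocyte score was 0.12 lower in vehicle Tg2576 than in wild type and the endothelial score 0.15 higher in treated than in vehicle Tg2576 (adjusted p = 0.0173 each), and the other 26 tests did not pass. Of 11 tested dentate genes, 2 lay above 0 between genotypes, and only Tdo2 passed (limma adjusted p = 0.00202). Of 11 astrocyte genes, 2 lay above 0 between genotypes, up to 0.33, and only Slc4a4 passed (limma adjusted p = 0.00279). Of 11 endothelial genes, 8 lay above 0 with the drug, and only Slco1a4 passed (limma adjusted p = 0.025). In this bulk tissue, changes in cell number, in RNA per cell and in single marker genes cannot be told apart.

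**Figure D1:**
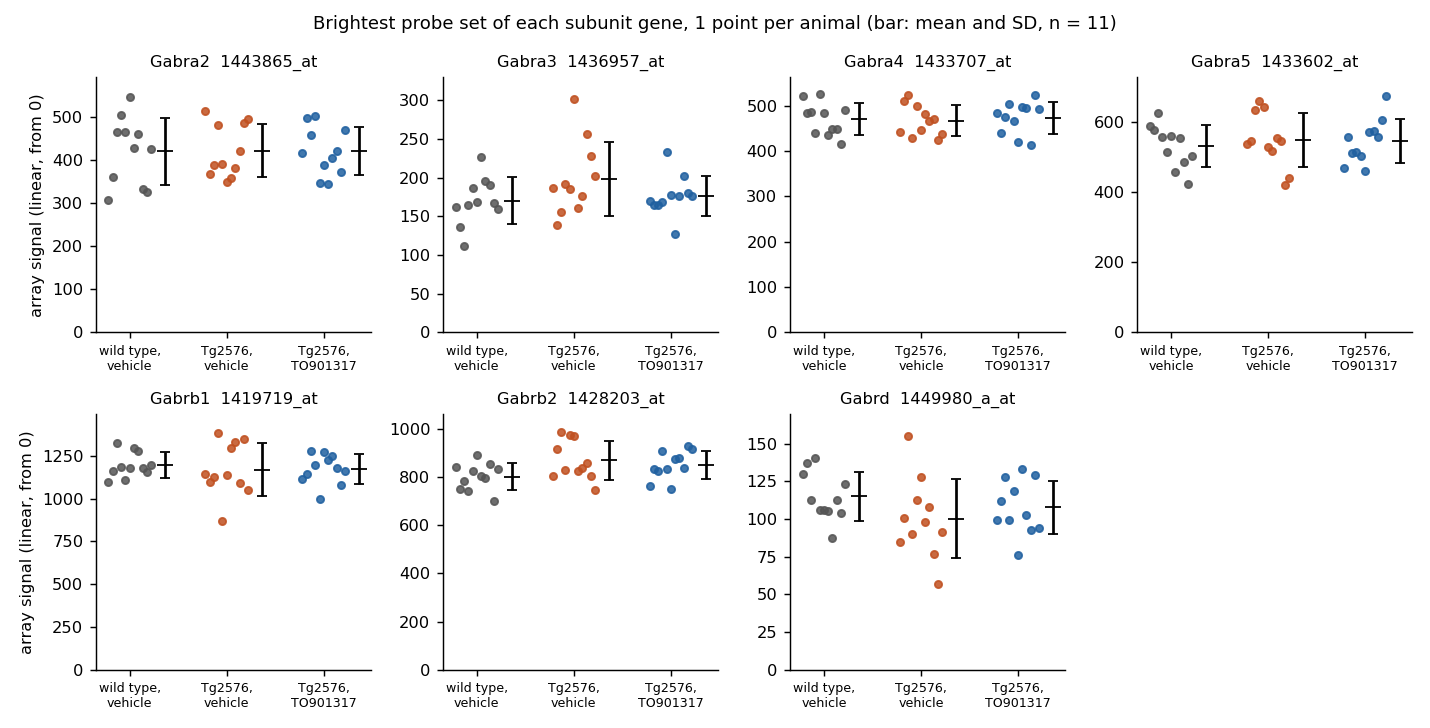
Signal of the brightest probe set of each gene, on a linear axis from 0, with 1 point per animal in the 3 groups and the mean and SD (n = 11) beside the points. In all 7 panels the groups overlap. Relative to its mean the widest group is vehicle Tg2576 for Gabrd, with animals from 57.1 to 154.9.

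The first question was what the transgene changed in vehicle-dosed animals, and no subunit gene passed. By limma with Benjamini-Hochberg adjustment over 27022 probe sets, 0 of 17 member probe sets were called, against 0.159% of all probe sets tested (0.0703% higher and 0.0888% lower in Tg2576). At an unadjusted p under 0.05 there was 1 of 17, higher in Tg2576, against 9.7% of all. The 17 log2 differences ranged from -0.32 to 0.20, with 9 above 0 and a median of 0.013, beside a median of 0 over all probe sets. The smallest adjusted p of a member was 0.438.

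The second question was what the drug changed in Tg2576 animals, and again no subunit gene passed. The count was 0 of 17, against 0.141% of all probe sets tested (0.0703% in each direction). At an unadjusted p under 0.05 there was 1 of 17, higher with the drug, against 10.5% of all. Differences ranged from -0.14 to 0.39, with 10 of 17 above 0 and a median of 0.011, beside 0.004 over all probe sets, and the smallest adjusted p was 0.458. Treated Tg2576 against wild type, which shares its arrays with both other comparisons, gave 0 of 17 against 0.144% of all (0.0703% higher and 0.074% lower in treated animals). At an unadjusted p under 0.05 it gave 0 of 17 against 8.2%, and the 17 differences ranged from -0.20 to 0.23, with 12 of 17 above 0 and a median of 0.036 beside 0.005. Over all probe sets, 50.1%, 51.3% and 52.2% lay above 0 in the genotype, drug and treated against wild-type comparisons. A joint test of all 3 groups called 87 of 27022 probe sets, and the smallest p among the 17 was 0.0707 (limma adjusted p = 0.488, Gabrb2).

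**Figure D2:**
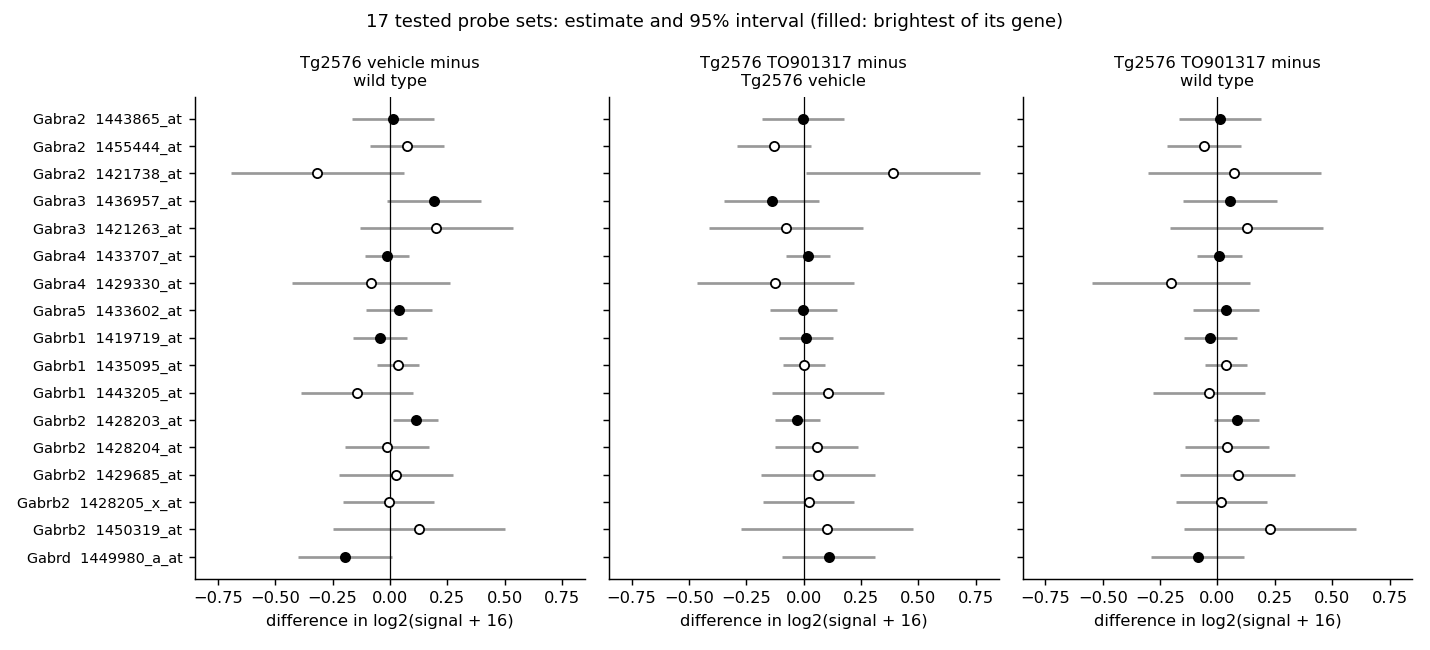
Estimated difference in log2(signal + 16) for the 17 tested probe sets with 95% intervals, in 1 panel per comparison, with filled points for the brightest probe set of each gene. Only the intervals of Gabrb2 1428203_at (vehicle Tg2576 minus wild type) and Gabra2 1421738_at (treated minus vehicle Tg2576) lie wholly on one side of 0, and neither passes after adjustment.

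Among the alpha subunits, Gabra2 encodes a subunit found at synapses, including those on the axon's initial segment. Its brightest probe set, 1443865_at, read 307.7, 427.4 and 546.1 (lowest, median and highest) in wild type, 347.5, 391.3 and 513 in vehicle-dosed Tg2576, and 344.9, 415.9 and 501.4 in treated Tg2576. Wild type was the widest group, with 3 animals below every Tg2576 animal and 1 above all of them, and the means of 419.8 ± 78.1, 420.9 ± 60.9 and 419.4 ± 55.7 (SD, n = 11 each) were nearly equal. The difference between vehicle Tg2576 and wild type was 0.013 (95% interval -0.17 to 0.19) and that between treated and vehicle Tg2576 was -0.003 (-0.18 to 0.18). The next probe set, 1455444_at, gave 0.073 between genotypes (interval -0.09 to 0.23) and -0.13 with the drug (interval -0.29 to 0.03), both of which held 0.

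The Gabra2 probe set 1421738_at read lower in vehicle Tg2576 than in either other group. It read 162, 320.4 and 493.3 (lowest, median and highest) in wild type, 120.6, 224.7 and 452.6 in vehicle-dosed Tg2576, and 200.8, 310.9 and 446.2 in treated Tg2576. Only 1 of 11 vehicle Tg2576 animals lay above the wild-type median, and 10 of 11 treated animals lay above the vehicle Tg2576 median, yet all 3 groups overlapped and vehicle Tg2576 animal 1 exceeded every treated animal. The difference was -0.32 (SE 0.19, limma p = 0.0979, adjusted p = 0.611) between vehicle Tg2576 and wild type. It was 0.39 (SE 0.19, limma p = 0.0433, adjusted p = 0.458) between treated and vehicle Tg2576. These comparisons share the vehicle Tg2576 arrays. Between treated animals and wild type it was 0.074 (interval -0.30 to 0.45).

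The probe sets of Gabra2 were set against each other directly, as the difference between the brightest and 1421738_at on each array. This difference was 0.39 lower in treated than in vehicle Tg2576 (permutation p = 0.0331, two-sided), which did not pass over the 30 such tests (adjusted p = 0.877). The signal of 1421738_at also fell as the beta-actin 3' to 5' ratio of the array rose (r = -0.557, rho = -0.613, permutation adjusted p = 0.00408 over 51 pairs). With that ratio as a covariate, chosen after the correlation was seen, the estimates were -0.47 between genotypes and 0.43 with the drug (limma adjusted p = 0.152 and 0.194). With the Gapdh ratio they were -0.26 and 0.31. This probe set had a within-group SD of 0.449, larger than 97% of the probe sets tested. The other 2 Gabra2 probe sets, 1449807_x_at and 1420299_at, had mean signals of 12.4 and 1.69, under the filter limit of 13.9.

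**Figure D3:**
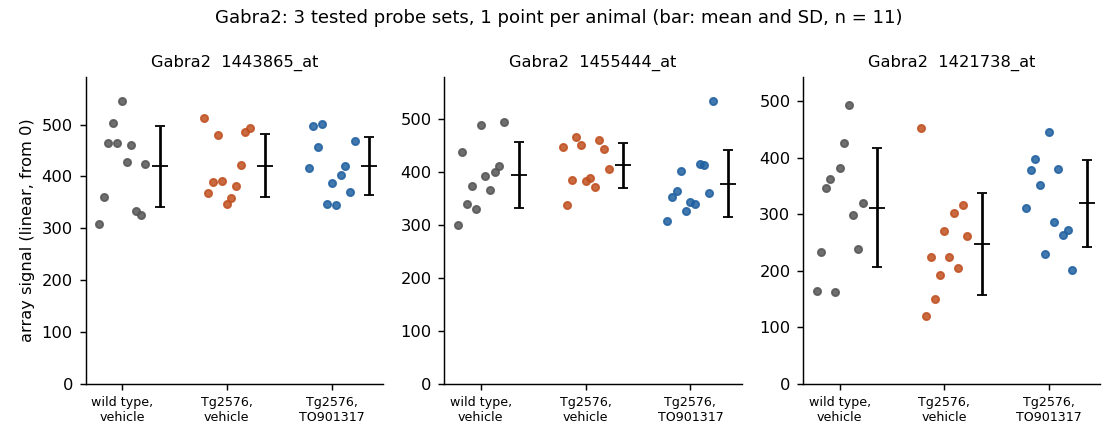
Signal of the 3 tested Gabra2 probe sets, on a linear axis from 0, with 1 point per animal in the 3 groups and the mean and SD (n = 11) beside the points. The means of 1443865_at are level across the groups, and those of 1421738_at are 311.6, 247.3 and 319.8 with a wider spread.

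Gabra3 encodes an alpha subunit that in the adult forebrain is more prominent in cortex and reticular thalamus than in hippocampus. Its brightest probe set, 1436957_at, read 111.6, 167.7 and 226.7 in wild type, 139.2, 186.9 and 302 in vehicle-dosed Tg2576, and 126.7, 175.9 and 233.9 in treated Tg2576 (lowest, median and highest). In vehicle Tg2576, 8 of 11 animals lay above the wild-type median and 3 above the wild-type maximum, with animal 6 the highest of all. The difference was 0.19 (SE 0.10, interval -0.013 to 0.40, limma p = 0.0657, adjusted p = 0.547), and with the drug it was -0.14 (interval -0.35 to 0.07). With marker scores of dentate, pyramidal, thalamic and striatal, and meningeal genes as covariates, the genotype estimate turned to -0.15. What part these scores have in the difference was not tested. The dimmer probe set 1421263_at gave 0.20 (interval -0.13 to 0.54) and -0.076 (interval -0.41 to 0.26), in the same directions.

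Gabra4, the partner of delta at extrasynaptic sites, had 1 steady and 1 variable probe set. The brighter, 1433707_at, read 414.2, 483.7 and 525.2 in wild type, 424.9, 465.7 and 523.9 in vehicle-dosed Tg2576, and 413.9, 484 and 524.1 in treated Tg2576 (lowest, median and highest). The 3 groups were nearly superimposed. The genotype difference was -0.012 with an interval of -0.11 to 0.08, which on this scale spans -7.23% to 6.03%, and the drug difference was 0.020 with an interval of -0.08 to 0.12, or -5.14% to 8.41%. Its within-group SD of 0.105 exceeded that of only 5.33% of the probe sets tested. The dimmer probe set 1429330_at, at 74.5 ± 26.1, 69.4 ± 25.1 and 61.7 ± 19.9 (SD, n = 11 each), had wide intervals (-0.43 to 0.26 and -0.47 to 0.22) that held 0. Its within-group SD of 0.42 was larger than that of 95.8% of the probe sets tested.

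Gabra5 was read by 1 probe set, 1433602_at. It read 423.2, 556.9 and 626 in wild type, 422, 546.4 and 661.1 in vehicle-dosed Tg2576, and 460.6, 557.6 and 675.6 in treated Tg2576 (lowest, median and highest). The groups overlapped almost fully, although 3 of 11 vehicle Tg2576 animals exceeded the wild-type maximum. These were animals 3, 4 and 5, whose Gapdh 3' to 5' ratios of 0.11, 0.079 and -0.077 were the highest of their group. With group means removed, Gabra5 rose with the Gapdh ratio (r = 0.489, permutation adjusted p = 0.0198 over 51 pairs). By rank this did not pass (rho = 0.386, permutation adjusted p = 0.0514). The value was 0.343 without vehicle Tg2576 animals 3 and 4. Within wild type, vehicle Tg2576 and treated Tg2576 it was 0.211, 0.73 and 0.149. Whether the ratio is a cause of the high signals in these animals was not tested. The genotype difference was 0.040 (interval -0.11 to 0.19, limma adjusted p = 0.902) and the drug difference -0.003 (interval -0.15 to 0.14, adjusted p = 0.994).

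Among the beta subunits, Gabrb1 had 3 tested probe sets. The brightest, 1419719_at, read 1099, 1178 and 1325 in wild type, 866.6, 1136 and 1382 in vehicle-dosed Tg2576, and 995.7, 1179 and 1280 in treated Tg2576 (lowest, median and highest). Vehicle Tg2576 animals were the most scattered, with an SD of 155.1 against 73.3 and 87.3, and they held 4 animals below the lowest wild-type animal as well as 3 above the highest. Whether the spread itself differed was not tested. The genotype difference in level was -0.042 (interval -0.16 to 0.08) and the drug difference 0.011 (interval -0.11 to 0.13). The probe set 1435095_at, at 643.2 ± 36, 659.8 ± 50.3 and 660.4 ± 49.6 (SD, n = 11 each), gave 0.034 (interval -0.06 to 0.13) and 0.002 (interval -0.09 to 0.09). The dimmer 1443205_at, at 141.5 ± 38.8, 126.7 ± 33.4 and 134.5 ± 17.2, gave -0.14 (interval -0.39 to 0.10) and 0.11 (interval -0.14 to 0.35). The probe set 1443834_at had a mean signal of 8.93 and was not tested.

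Gabrb2 gave the smallest p of the genotype comparison. Its brightest probe set, 1428203_at, read 700, 803.2 and 892.9 in wild type, 747.4, 835.3 and 984.9 in vehicle-dosed Tg2576, and 749.9, 836.4 and 929 in treated Tg2576 (lowest, median and highest). In vehicle Tg2576, 10 of 11 animals lay above the wild-type median and 4 above its maximum, and in treated Tg2576 these counts were 9 and 3. The means were 801.1 ± 56, 868.2 ± 80.5 and 849.8 ± 58.9 (SD, n = 11 each). The genotype difference was 0.11 (SE 0.05, interval 0.013 to 0.21, limma p = 0.0276, adjusted p = 0.438), or 8.05% on this scale. Between treated animals and wild type it was 0.084 (interval -0.015 to 0.18, limma p = 0.094, adjusted p = 0.702). Between treated and vehicle Tg2576 it was -0.028 (interval -0.13 to 0.07, limma adjusted p = 0.891).

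The other 4 Gabrb2 probe sets gave estimates on both sides of 0. Between genotypes, 1428204_at gave -0.014, 1429685_at 0.026, 1428205_x_at -0.005 and 1450319_at 0.13, and with the drug all 4 gave between 0.021 and 0.10. Their intervals were wide enough to hold both 0 and the value of the brightest probe set, and the direct tests of brightest minus other did not pass (smallest permutation p = 0.321 in the genotype comparison, adjusted p = 0.877 over 30 tests). 1428203_at, 1428204_at and 1428205_x_at were designed on the same source transcript.

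Gabrd encodes the delta subunit, which takes the place of a gamma subunit in extrasynaptic receptors and makes them sensitive to neurosteroids. Its tested probe set, 1449980_a_at, read 87.6, 112.4 and 140.8 in wild type, 57.1, 97.8 and 154.9 in vehicle-dosed Tg2576, and 76.3, 102.5 and 132.9 in treated Tg2576 (lowest, median and highest). Of the vehicle Tg2576 animals, 3 lay below the lowest wild-type animal, while animal 3 lay above the highest. The genotype difference was -0.20 (SE 0.10, interval -0.40 to 0.008, limma p = 0.0594, adjusted p = 0.536), with means of 100.2 ± 26.1 against 115 ± 16.1 (SD, n = 11 each). It was -0.26 without vehicle Tg2576 animal 3 and -0.13 without vehicle Tg2576 animal 10 (limma adjusted p = 0.383 and 0.69). The drug difference was 0.11 (interval -0.10 to 0.31). The dentate marker score was also lower in vehicle Tg2576. With the 4 marker scores as covariates the Gabrd genotype estimate was -0.054, but calls over all probe sets also went from 43 to 0. Gabrd and the dentate score had r = 0.21 within groups (permutation adjusted p = 0.595 over 70 pairs). Whether the dentate share of the tissue has a part in the Gabrd difference was not tested. Across animals within groups no correlation between a member and a marker score passed (0 of 70 pairs, r from -0.441 to 0.481), although 1 passed without vehicle Tg2576 animals 3 and 4 (Gabrb1 with the interneuron score, r = -0.592, permutation adjusted p = 0.0385) and 1 other with array measures removed (Gabra3 with the interneuron score, r = 0.589, adjusted p = 0.0252). The second probe set, 1457763_at, had a mean signal of 6.53 and was not tested.

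Variation between animals was examined after each group's mean had been removed, over all 33 arrays. Of the 21 pairs of brightest probe sets, 4 correlated after adjustment, all positively, and they joined Gabra4, Gabra5, Gabrb2 and Gabrd. The share of such pairs among other genes is not given here, for this and the later counts of pairs. These counts were therefore not read as particular to the subunit genes. Gabra4 and Gabrb2 had r = 0.627 and rho = 0.647 (permutation p = 0.00032 and 0.00025, adjusted p = 0.00672 and 0.00525 over 21 pairs). The value was 0.611 without the 2 arrays farthest from the median of Gabra4, and 0.553, 0.683 and 0.657 within wild type, vehicle Tg2576 and treated Tg2576. Gabra5 and Gabrb2 had r = 0.561 and rho = 0.481 (adjusted p = 0.0144 and 0.0485), 0.481 without the 2 farthest arrays, and 0.23, 0.616 and 0.816 within the groups. Gabra4 correlated with Gabrd at r = 0.492 and rho = 0.495 (permutation adjusted p = 0.0287 and 0.0485), at 0.48 without the 2 farthest arrays and at 0.26, 0.64 and 0.538 within the groups. With Gabra5 it correlated at r = 0.488 and rho = 0.462 (permutation adjusted p = 0.0293 and 0.0495), at 0.47 without the 2 farthest arrays and at 0.595, 0.489 and 0.388 within the groups. By rank alone, Gabra3 and Gabrd also passed, with rho = -0.457 (permutation adjusted p = 0.0495) beside r = -0.307 (adjusted p = 0.222). Gabra4 and Gabrb1, whose starts overlap, had r = -0.343 (adjusted p = 0.114).

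These 4 correlations were also set beside measures and other scalings of the arrays, but what part scaling has in them was not tested. Gabra4, Gabra5 and Gabrb2 each fell as the median log2 signal of the array rose (r = -0.563, -0.528 and -0.5, rho = -0.589, -0.463 and -0.45, permutation adjusted p = 0.00232, 0.0115 and 0.0181 over 51 pairs), while Gabrd had r = -0.387 (adjusted p = 0.104). Without the 2 farthest arrays the first 3 were -0.553, -0.399 and -0.331. Within wild type, vehicle and treated Tg2576 they were -0.7, -0.536 and -0.701 for Gabra4, -0.301, -0.675 and -0.462 for Gabra5, and -0.135, -0.606 and -0.648 for Gabrb2. After quantile normalization the 4 correlations were 0.494, 0.448, 0.463 and 0.403 in the order given, and none passed (permutation adjusted p = 0.0709 each). Gabra4 after this normalization still fell as the original array median rose (r = -0.408, permutation adjusted p = 0.0357). With the array median and both 3' to 5' ratios removed, an alternative added after seeing the data, they were 0.451, 0.47, 0.415 and 0.395 (adjusted p = 0.114 each). Without vehicle Tg2576 animals 3 and 4, the correlation of Gabra4 and Gabrd was 0.418 (adjusted p = 0.0926), and the other 3 still passed.

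**Figure D4:**
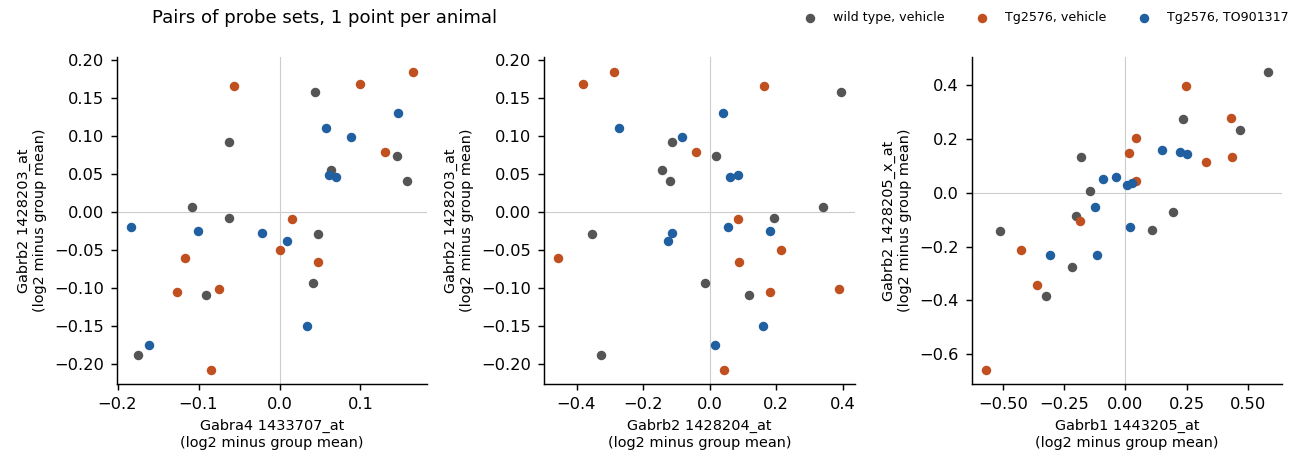
Pairs of probe sets with 1 point per animal, each axis in log2(signal + 16) minus the group mean, coloured by group. The points rise together for Gabra4 and the brightest Gabrb2 probe set (r = 0.627) and for Gabrb1 1443205_at and Gabrb2 1428205_x_at (r = 0.822), but not for the Gabrb2 probe sets 1428204_at and 1428203_at (r = -0.136).

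Probe sets of 1 gene did not always follow each other. Among 18 such pairs, 7 correlated after adjustment, all positively. The 4 dimmer Gabrb2 probe sets correlated with each other at r = 0.574 to 0.941 (rho = 0.615 to 0.906, permutation adjusted p at most 0.00192), whereas the brightest Gabrb2 probe set had r = -0.373 to -0.048 with these 4. The strongest pair, 1428204_at and 1428205_x_at, had r = 0.931 without the 2 farthest arrays and 0.963, 0.97 and 0.761 within wild type, vehicle Tg2576 and treated Tg2576. The Gabra3 pair correlated at r = 0.566 and rho = 0.552 (permutation adjusted p = 0.00283 and 0.0045), at 0.528 without the 2 farthest arrays and at 0.471, 0.74 and 0.457 within the groups. The 2 brightest Gabrb1 probe sets had r = 0.075 and the Gabra4 pair had r = -0.128, neither of which passed.

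The dimmer Gabrb2 probe sets instead followed dimmer probe sets of other subunit genes. Of 97 pairs from 2 genes in which at least 1 probe set was not the brightest, 14 passed, 12 of them positive. Gabrb1 1443205_at correlated with Gabrb2 1428205_x_at at r = 0.822 and rho = 0.826 (permutation adjusted p = 0.000485 and 0.00097 over 97 pairs), at 0.763 without the 2 farthest arrays and at 0.766, 0.875 and 0.817 within the groups. With Gabrb2 1428204_at it correlated at r = 0.757 and rho = 0.749, at 0.678 without the 2 farthest arrays and at 0.703, 0.896 and 0.385 within the groups. Gabra3 1421263_at correlated with Gabrb2 1450319_at at r = 0.686 and rho = 0.693 (permutation adjusted p = 0.000647), and at 0.874, 0.66 and 0.369 within the groups. Gabra2 1421738_at correlated with Gabrb1 1443205_at at r = 0.656 and rho = 0.702 (permutation adjusted p = 0.00388), and at 0.73, 0.682 and 0.392 within the groups.

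These probe sets also moved with the 3' to 5' ratios of the arrays. Each tested probe set was paired with the array median and both ratios, and 30 of these 51 pairs passed, 19 negative and 11 positive. The share over all probe sets on the array is not given here. With the Gapdh ratio, Gabra3 1421263_at had r = -0.596 and rho = -0.599 (permutation adjusted p = 0.00102 and 0.00198). The beta-actin 3' to 5' ratio correlated negatively with Gabrb2 1450319_at (r = -0.778), 1428205_x_at (-0.691), 1428204_at (-0.671) and 1429685_at (-0.616), with Gabrb1 1443205_at (-0.738) and with Gabra3 1421263_at (-0.622), at rho between -0.601 and -0.758 and permutation adjusted p between 0.000255 and 0.0017 over 51 pairs. For Gabrb2 1450319_at the correlation was -0.71 without the 2 farthest arrays and -0.773, -0.874 and -0.682 within the groups. Among the brightest probe sets, Gabrb1 1419719_at also passed in the negative direction (r = -0.447, permutation adjusted p = 0.0282) and Gabra5 in the positive (r = 0.431, adjusted p = 0.0316), although neither passed by rank (rho = -0.346 and 0.352, adjusted p = 0.0905 and 0.0834). The other 5 did not pass, with r = 0.282 for Gabrb2, 0.318 for Gabrd, 0.248 for Gabra4, -0.114 for Gabra3 and -0.077 for Gabra2. With the array median and both ratios removed, 0 of the 14 pairs that had passed did so: Gabrb1 1443205_at and Gabrb2 1428205_x_at had r = 0.592 (adjusted p = 0.0511), and Gabra3 1421263_at and Gabrb2 1450319_at had r = 0.342 (adjusted p = 0.443). Within Gabrb2, the 3 pairs among 1428204_at, 1429685_at and 1428205_x_at kept r = 0.575 to 0.877 (adjusted p at most 0.0101), and the 3 pairs with 1450319_at came to 0.062 to 0.159.

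**Figure D5:**
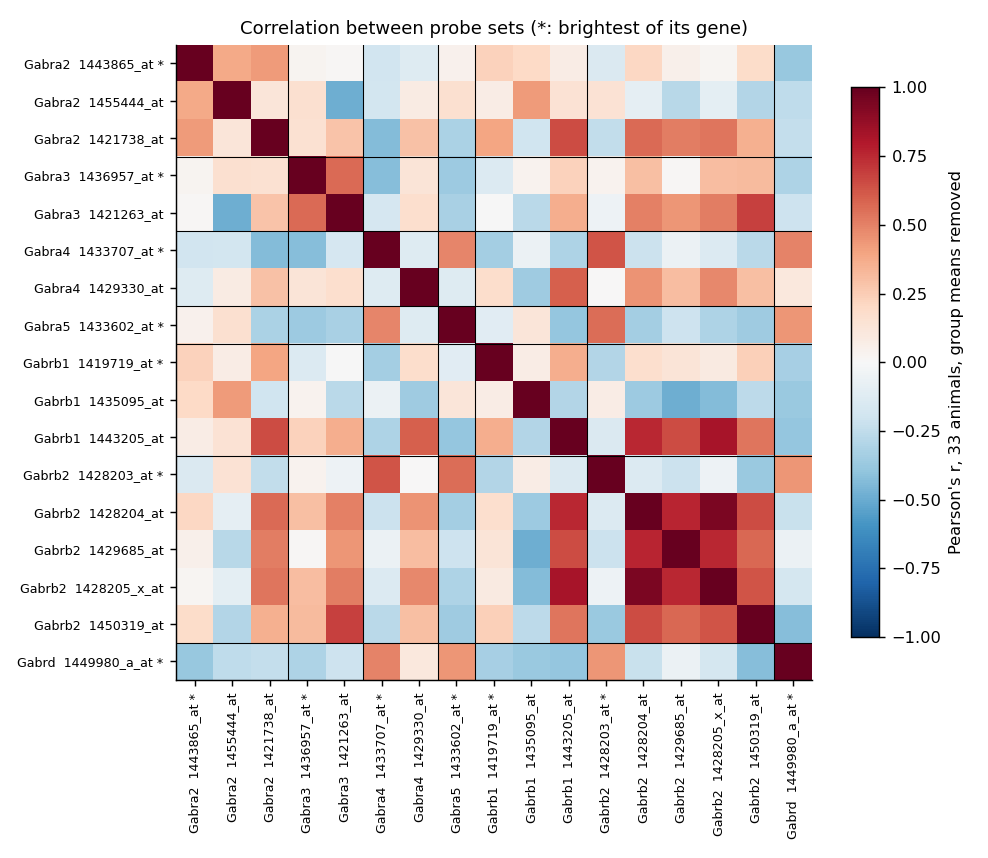
Pearson correlation between the 17 tested probe sets over 33 animals with group means removed, with lines between genes and an asterisk on the brightest probe set of each gene. The 4 dimmer Gabrb2 probe sets and Gabrb1 1443205_at form the darkest red block, and the brightest Gabrb2 probe set stands outside it.

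By a fixed rule, the 3 genes most like each member were taken from 12758 others by Pearson correlation over the 33 arrays with group means removed, as a description. For Gabrb2 they were Csrnp3 (0.84), Cyria (0.781) and Gucy1b1 (0.779), the last a subunit of soluble guanylate cyclase. For Gabrd they were Mn1 (0.755), Ppm1l (0.752) and Pdzrn3 (0.739), and for Gabra2 they were Opcml (0.748), Chrna7 (0.715), which encodes a nicotinic acetylcholine receptor subunit, and Cyp4x1 (0.702). Gabra4 was most like Naa50 (0.748), Zfp277 (0.731) and Tppp (0.697), and Gabra5 most like Itsn1 (0.734), the immediate early gene Egr1 (0.674) and Cnot2 (0.673). Gabrb1 was most like Thoc3 (0.739), Sel1l (0.735) and Pde4a (0.683), and Gabra3 most like Kcnj12 (0.704), Gm31445 (0.677) and Wnt5a (0.676). No gene was on 2 of these lists. All values share the arrays and their scaling.

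Genes that act with the receptor were read at their brightest probe set, and in none of the 5 lists did a gene pass in any of the 3 comparisons. Of 8 other GABA-A subunit genes named on the array, 3 were bright enough to test, 0 of 3 passed, and Gabrg1, a gamma subunit gene, had the smallest p between genotypes (150.7 in wild type and 133.3 in vehicle Tg2576, log2 difference -0.16, limma adjusted p = 0.578). Of 8 tested genes of GABA synthesis, vesicle loading, uptake and breakdown, 0 passed. Gad1, which makes most GABA, read 1414, 1398 and 1449 in wild type, vehicle and treated Tg2576, with differences of -0.015 and 0.053. Slc6a13, a GABA transporter that is also on the meningeal marker list, read 37.2 and 60.5 in wild type and vehicle Tg2576 (0.67, limma p = 0.0102, adjusted p = 0.332), with a meningeal score 0.30 higher in vehicle Tg2576 (permutation adjusted p = 0.35). Its part in that value was not tested. Slc32a1, the vesicular GABA transporter gene, had the smallest p with the drug (-0.14, limma adjusted p = 0.703), and Aldh5a1, which completes GABA breakdown, that of treated animals against wild type (-0.17, limma p = 0.0017, adjusted p = 0.219).

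Of 23 tested genes of the inhibitory synapse scaffold, adhesion and receptor trafficking, 0 passed. In the genotype, drug and treated against wild-type comparisons, 6, 10 and 7 of them lay above 0 at their brightest probe set. Over all probe sets tested, not only the brightest of each gene, the shares were 50.1%, 51.3% and 52.2%. A shift of the list as a whole was not tested. Gphn, which encodes the scaffold protein gephyrin, read 445.6, 441.5 and 442.2, with differences of -0.008 and 0.000. Nrxn2, a presynaptic neurexin gene, was nearest to the limit between genotypes (356.7 in wild type and 287.4 in vehicle Tg2576, -0.30, SE 0.08, limma p = 0.000385, adjusted p = 0.111). Plcl1, which binds receptor and phosphatase, had the smallest p with the drug (0.31, limma adjusted p = 0.27), after -0.35 between genotypes, and Shisa7, which encodes an auxiliary protein of GABA-A receptors, had that of treated animals against wild type (-0.17, limma adjusted p = 0.633).

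Of 6 tested genes of the metabotropic GABA-B receptor and its partners, 0 passed. Kctd8, an auxiliary subunit gene, read 19.1 in wild type, 29.3 in vehicle Tg2576 and 23.1 in treated Tg2576, a genotype difference of 0.37 (SE 0.10, limma p = 0.000509, adjusted p = 0.119). Kcnj3, a subunit gene of the potassium channels that the receptor opens, had the smallest p with the drug (0.28, limma adjusted p = 0.366), and Kcnj6 that of treated animals against wild type (0.20, adjusted p = 0.694). Of 11 tested genes of neuronal chloride transport, 0 passed. Slc12a5, the neuronal chloride exporter gene, read 2545, 2528 and 2583 with differences of -0.010 and 0.032. Car2, a carbonic anhydrase gene, had the smallest p between genotypes and between treated animals and wild type (-0.23 and -0.25, limma adjusted p = 0.263 and 0.237), and Clcn3, a chloride-proton exchanger gene, that with the drug (0.41, adjusted p = 0.313).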

How the data were processed

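Total RNA of the right hippocampus of 33 mice was hybridised to Affymetrix MOE430 2.0 arrays, 1 per animal, in 3 groups of 11 as the labels give them. The authors deposited 1 linear intensity per probe set and array, computed with MAS5 per the submitters' processing notes; its version is not given in the sources used here. Of 45101 probe sets, 64 controls were left out and 34945 name 1 gene in the platform annotation. The 40% of probe sets with the lowest mean (signal limit 13.9) were left out, and log2(signal + 16) of the other 27022 was fitted with limma 3.58.1 in R 4.3.3 (1 mean per group over all arrays, eBayes with trend and robust), with Benjamini-Hochberg adjustment and a limit of 0.05. The fit and the correlations were tested on simulated data.

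Permutation tests were two-sided with 100000 resamples, so the smallest p they can give is 1e-05. Correlation tests without vehicle Tg2576 animals 3 and 4 used fewer resamples, so their smallest possible p is larger. Tests of marker scores and of differences between probe sets ran in R 4.3.3. Correlation tests used Python 3.11.15, numpy 2.4.6 and scipy 1.17.1, and figures matplotlib 3.10.9. Correlations used values minus their group mean, permuted within groups, and a marker score is the mean log2 value over the genes of a list. Named genes are the 7 members, the member of smallest p of each pathway list where none passed, and the 3 genes most like each member. Gad1, Gphn and Slc12a5 were named after their values were seen. The 7 genes and the lists were chosen with earlier results of these data known. Probe sets of a gene were ranked by mean signal to name the brightest and the dimmer ones. These ranks were not read as amounts of RNA. Promoter windows came from RefSeq (GRCm38.p6).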

Additional observations from a re-analysis of the deposited data

How the results depend on the processing

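Over 48 alternative fits, which changed the pseudocount, filter, normalization, probe set rule, groups in the fit, variance model, array weights, covariates and arrays, 0 member probe sets were called in any comparison, with a smallest adjusted p of 0.114 (Gabrb1 1443205_at between genotypes, beta-actin ratio as a covariate). Counts at an unadjusted p under 0.05 ranged from 0 to 4 between genotypes, 0 to 2 with the drug and 0 to 1 for treated animals against wild type. With each array left out in turn the member counts stayed at 0 to 0. The 4 correlations that passed among the 91 pairs of members and marker scores fell to 0 under quantile normalization. They fell to 1 with the array median and both 3' to 5' ratios removed, an alternative added after seeing the data, and that 1 was Gabra3 with the interneuron score (r = 0.589, adjusted p = 0.0252, against 0.134 before). The cause was not tested. Without vehicle Tg2576 animals 3 and 4 the count was again 4, but Gabra4 with Gabrd no longer passed and Gabrb1 with the interneuron score did (r = -0.592, adjusted p = 0.0385, against -0.327 before).

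The replicate block, with the replicate number of the labels as a fixed term, gave 0, 0 and 0 member calls and 2, 1 and 0 at an unadjusted p under 0.05, and 50, 38 and 42 calls over all probe sets against 43, 38 and 39. The numbers were not taken to pair the animals: over 33 same-numbered pairs of arrays the correlation of deviations ranged from -0.15 to 0.263 with a median of 0.084, 12 of 33 were over 0.1, where every pair was required to be, and 5 of 33 correlated best with their own number. Numbers 7 and 8 were over 0.1 in all 3 pairs of groups. The estimate of Gabra2 1421738_at with the drug ranged from 0.30 to 0.48 and that of Gabrb2 1428203_at between genotypes from 0.093 to 0.16, whereas that of Gabra3 1436957_at between genotypes ranged from -0.15 to 0.24. Counts over all probe sets moved more: with arrays centred on the median 39, 16 and 27; with marker scores as covariates 0, 12 and 11; with the beta-actin ratio, added after seeing the data, 148, 125 and 44; with the Gapdh ratio 66, 53 and 59; with array weights 31, 35 and 86; with the lowest 60% left out 51, 59 and 66; with only the 2 groups compared 25, 30 and 42; and without vehicle Tg2576 animals 3 and 4 29, 9 and 53. Leaving out 1 array gave 25 to 58, 14 to 51 and 25 to 61. Signals of the 4 probe sets under the filter limit were too low to read differences from, and the number of arrays limits the precision of the others.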
